A study of Mus musculus with 6 samples.

Results

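The genes described here are 36 mouse genes of the interferon response and of antigen presentation by class I molecules, taken from a fixed list of symbols. That list was chosen with earlier results of these data known. Of the 36, 35 had a named probe on the array (Mx2 had none) and 30 passed the filter on dim probes, among 18774 features tested in all, of which 13307 were named genes. They were measured in embryonic stem (ES) cells, which are lines grown from the inner cell mass of a blastocyst, on 6 Agilent whole-genome arrays with 1 colour.

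The arrays form 3 groups of 2. The Flag-Dppa2 group (labelled KO_Flag15-2) and the mock group (KO_mock) came from the same 2 knockout lines, both 15-2-/- (no Dppa2, named ECAT15-2 in the labels) and 15-1CT/CT (both copies of Dppa4, named ECAT15-1, in the conditional targeted form). The first group carried a piggyBac transposon that makes Flag-tagged Dppa2 from the CAG promoter, a strong promoter that is active in most cell types, and the second the vector with no Dppa2. The wild-type group (WT) was 15-1+/+ and 15-2+/+ and was not transduced, so each comparison with WT sets apart the vector and the Dppa4 form as well as Dppa2. Replicate 1 of every group descends from one mother and replicate 2 from another, each knockout line is a single line from 1 blastocyst, and the strain background is a mixture of 129Sv and C57/BL6 with a further unknown part. All cells were grown on gelatin with serum and LIF, a cytokine that holds mouse ES cells in the undifferentiated state.

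Dppa2 is a nuclear protein of pluripotent cells that acts with its partner Dppa4 on chromatin. Interferons are secreted proteins that bind cell-surface receptors and, through JAK kinases and STAT transcription factors, switch on a large set of genes that hinder viruses, and class I molecules on the cell surface show peptides made by the proteasome to T cells. Undifferentiated ES cells are known for weak production of interferon and a weak response to it. A promoter element bound by IRF proteins, the interferon-stimulated response element (ISRE), has at its core a pair of GAAA tetrads set 2 bases apart, and the element bound by STAT dimers is called GAS.

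The ISRE core was searched, on both strands, from 250 bases before to 50 after the transcription start. Of the 8 genes that passed the test in any comparison below, 2 had it, and both are shown here. They moved in opposite directions between mock and WT. Ifih1 encodes MDA5, a cytoplasmic sensor of long double-stranded RNA, and was lower in mock; Eif2ak2 encodes PKR, a kinase that stops translation when it binds double-stranded RNA, and was higher. Each line gives the sequence 5′ to 3′ on the strand of the gene, from RefSeq on build GRCm38.p6, at chr2:62646206-62646505 (minus strand) for Ifih1 and chr17:78882523-78882822 (minus strand) for Eif2ak2, with the ISRE core in capitals.
Ifih1: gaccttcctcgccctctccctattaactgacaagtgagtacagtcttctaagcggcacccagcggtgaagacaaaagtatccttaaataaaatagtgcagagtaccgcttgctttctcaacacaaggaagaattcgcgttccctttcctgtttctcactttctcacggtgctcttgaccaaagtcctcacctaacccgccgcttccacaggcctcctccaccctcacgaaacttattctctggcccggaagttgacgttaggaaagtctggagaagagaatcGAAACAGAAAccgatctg
Eif2ak2: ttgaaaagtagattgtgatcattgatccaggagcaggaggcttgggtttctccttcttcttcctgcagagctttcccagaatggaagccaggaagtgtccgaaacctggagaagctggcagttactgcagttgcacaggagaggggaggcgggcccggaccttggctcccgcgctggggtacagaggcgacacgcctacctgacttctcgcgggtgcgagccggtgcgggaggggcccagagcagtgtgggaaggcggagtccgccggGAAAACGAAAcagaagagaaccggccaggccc

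The core begins at base 33 after the start in Ifih1 and at base 19 after it in Eif2ak2. Over the whole set, 15 of the 31 genes with a promoter in the RefSeq table had an ISRE core in at least 1 promoter (48.4%), against 3.98% of 26994 genes of the table. The GAS motif TTCNNNGAA was found in 9 of the 31 (29%) and in 9.55% of all genes. Among the 8 genes that passed the test, 2 had the ISRE core (25%) and 4 had the GAS motif (50%), which were Irf1, Ifi35, Eif2ak2 and Nod1. A match of letters is a description and not a binding site, and genes with several promoters had more chances of a match.

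Levels below are log2 signals relative to the 75th percentile of the array, so a level of 0 is the level of the probe at that percentile, and they compare arrays for 1 probe but not probes with each other. A probe counted as detected where the scanner marked it well above background. Where a group was detected on neither array, a fold is given as at least a value. That value takes the group's own signals, raised to the lowest detected signal of the array where they lay below it. Undetected probes can lie far above that lowest signal, so the value is a working bound and no guaranteed minimum. Parp12 was not detected at -4.78 on mock replicate 1, where the lowest detected signal was -6.83. Differences are log2 with the standard error (SE) of a limma fit over all 3 groups, and a gene was called at an adjusted p (Benjamini-Hochberg over the 18774 features, two-sided) under 0.05. The targeted gene was lowest in mock: Dppa2 stood at -0.05 and 0.35 on the Flag-Dppa2 arrays, -2.09 and -2.0 on the mock arrays and 2.13 and 2.07 on the WT arrays. Whether its probe lies in the deleted part is not given in the sources used here.

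Some facts of the arrays bear on every value. The WT arrays differed by more than the scanner's own error at 0.448% of 14943 bright spots, against 25.53% for the Flag-Dppa2 arrays and 22.793% for the mock arrays. The labels give the WT arrays as different lines, but they may be 1 sample, and with them averaged into 1 the fit called no gene in any comparison (limma, adjusted p; 2283 features and 12 of the 30 genes had an unadjusted p under 0.05 for mock against WT). Both Flag-Dppa2 arrays lay on slide 2 and the other 4 on slide 1, so slide and Flag-Dppa2 cannot be told apart, while mock and WT were compared within a slide. The Y-linked genes Eif2s3y and Ddx3y were detected on both WT arrays and on no knockout array, and the effects of sex and of genotype cannot be told apart.

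Other cell types were checked through their markers. All 9 ES cell markers with a probe were detected on every array, and Utf1 was called 1.83-fold higher in mock than in WT (adjusted p = 0.0385). Their summed signal, in units of the 75th percentile, was 162 to 228 on the Flag-Dppa2 arrays, 172 to 230 on the mock arrays and 141 to 143 on the WT arrays. Of 17 fibroblast and feeder cell markers, 9 to 14 were detected on each array, and their summed signal, in units of the 75th percentile, was 21.6 to 31.5 on the Flag-Dppa2 arrays, 22.4 to 31.5 on the mock arrays and 36.4 to 40 on the WT arrays, with Lum and Col6a1 detected on no array. Of the 15 tested, Mmp2, Loxl1 and Fbn1 were called lower in mock than in WT and higher with Flag-Dppa2 than in mock: Mmp2 was 19.4-fold lower in mock than in WT (adjusted p = 0.00646) and 15-fold higher with Flag-Dppa2 than in mock (adjusted p = 0.0166). Of 4 tested endothelial markers, Tek was 5.02-fold lower (adjusted p = 0.016) and Cldn5 at least 32.7-fold lower (adjusted p = 0.0179) in mock than in WT, and Cldn5 was at least 29.8-fold higher with Flag-Dppa2 than in mock (adjusted p = 0.0434). The summed signal of the 35 interferon and class I genes was 90.4 to 102 on the Flag-Dppa2 arrays, 89.6 to 97.2 on the mock arrays and 140 to 143 on the WT arrays. Of 10 macrophage markers with a probe, 2 or 3 were detected on each array. The 2 that could be tested, Cd14 and Fcer1g, lay higher on both mock arrays than on both WT arrays and were not called, and Ptprc, Itgam, Adgre1 and Lyz2 were detected nowhere. The 5 tested markers of the Zscan4-positive early-embryo-like state, which a small share of ES cells enters, (Zscan4c, Tcstv1, Tcstv3, Usp17la and Gm428) were detected on both WT arrays and on no knockout array, and all were called lower in mock. They passed the filter through WT alone. Of 7 tested endoderm markers none was called in any comparison. For Flag-Dppa2 against WT, 5 of them lay higher without overlap and 0 lower, beside 33.2% and 27.1% of all features. For mock against WT, 1 lay higher and 2 lower (37.2% and 28.6%). The part of the ES cell, feeder, endothelial, macrophage, endoderm and early-embryo-like markers in the results below was not tested. In bulk RNA fewer cells of a type and less RNA per cell cannot be told apart.

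**Figure D1:**
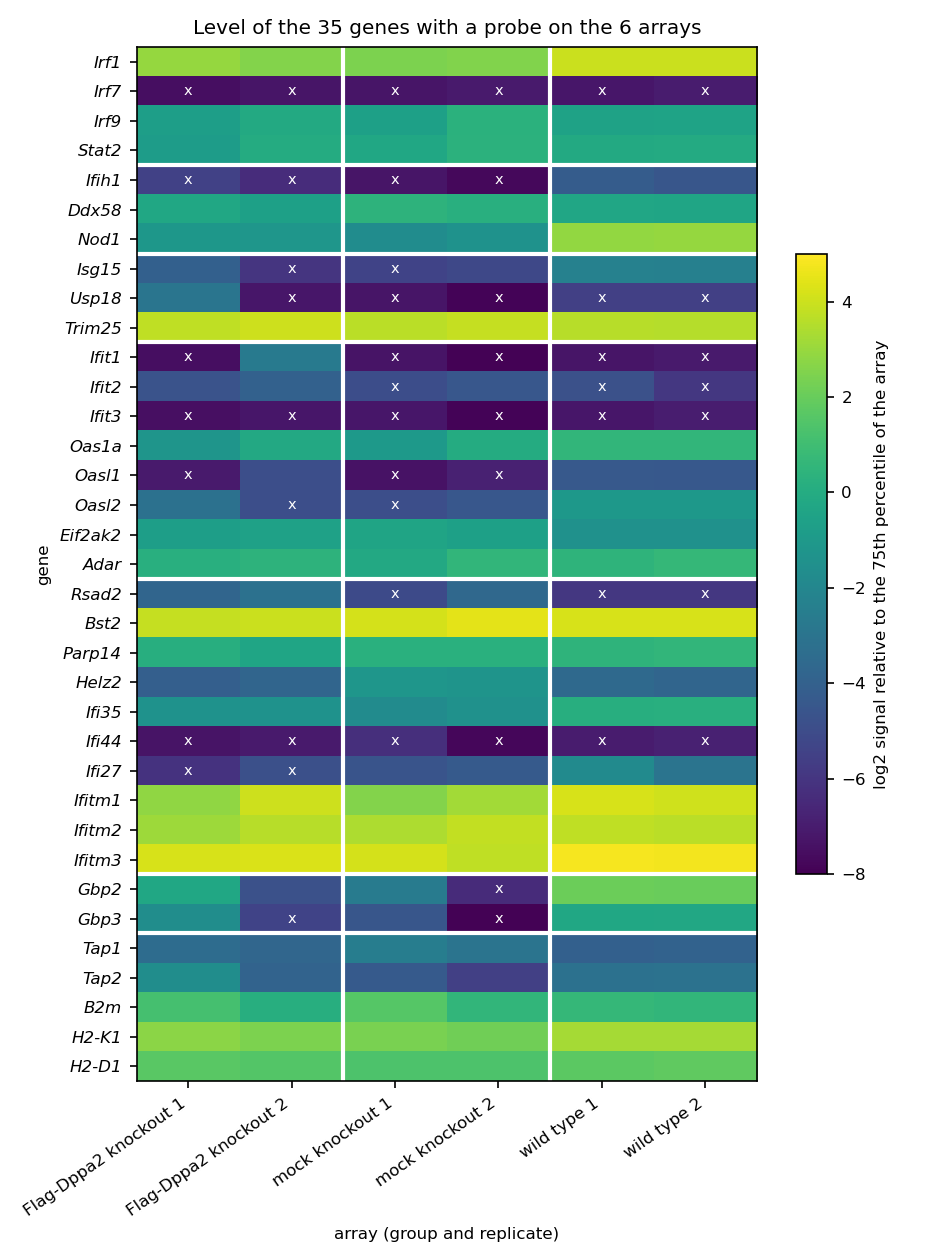
Level of the 35 genes with a probe (rows, grouped by role) on the 6 arrays (columns: Flag-Dppa2, mock, WT), as log2 signal relative to the 75th percentile of each array; x marks a probe that was not well above background. Nod1, Ifi35, Gbp2 and Gbp3 are brighter in the WT columns than in any knockout column, and Irf7, Ifit3 and Ifi44 carry an x on all 6 arrays.

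Mock knockout cells were first compared with WT cells, which asks how these genes stood in cells without Dppa2. Of the 30 tested genes, 8 were called: Irf1, Ifih1, Nod1, Oasl2, Ifi35 and H2-K1 were lower in mock, and Helz2 and Eif2ak2 were higher. Over all features, 3.66% were called lower and 2.47% higher. Without overlap, both mock arrays lay below both WT arrays for 17 genes and above them for 6, where the shares over all features were 28.6% and 37.2%. The median difference of the 30 genes was -0.61, beside 0.05 over all features. With the mock array of the first or second line set against the mean of both WT arrays, it was -0.67 and -0.48. Only Ifih1 of the 30 passed the filter through WT alone, and 21 of the 30 were detected on all 6 arrays. The fit limited to probes detected on all arrays called 7 of those 21, 3 higher and 4 lower, and gave a median of -0.23. Over the 15928 features of that fit, 565 were called higher and 527 lower, and the median was 0.06. Tap1, not called in the main fit, was among the 3 higher. Leaving out either mock array left 3 calls, Nod1, Helz2 and Ifi35, and leaving out either WT array left 0; the line as a block left 4, the same 3 and Ifih1.

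Knockout cells with Flag-Dppa2 were then set against mock knockout cells, which asks what the return of Dppa2 changed. Of the 30 genes 1 was called, Helz2, which was lower with Flag-Dppa2, and leaving out any single array ended that call (adjusted p = 0.0584 to 0.147). Among all features 0.714% were called higher and 0.0373% lower. Both Flag-Dppa2 arrays lay above both mock arrays for 8 genes (18.1% of all features) and below them for 6 (19%), and the median difference was 0.21, beside -0.01 over all features. Between Flag-Dppa2 and WT, Nod1 and Ifi35 were called lower and no gene was called higher, where 0.389% and 0.144% of all features were called lower and higher. In that comparison 19 genes lay lower without overlap (27.1% of all features) and 5 higher (33.2%), with a median of -0.46 beside 0.03. The comparisons share arrays, so their lists are not independent of each other. Both calls against WT were lost without either Flag-Dppa2 array, without either WT array or with the line as a block, and that of Ifi35 also without either mock array.

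**Figure D2:**
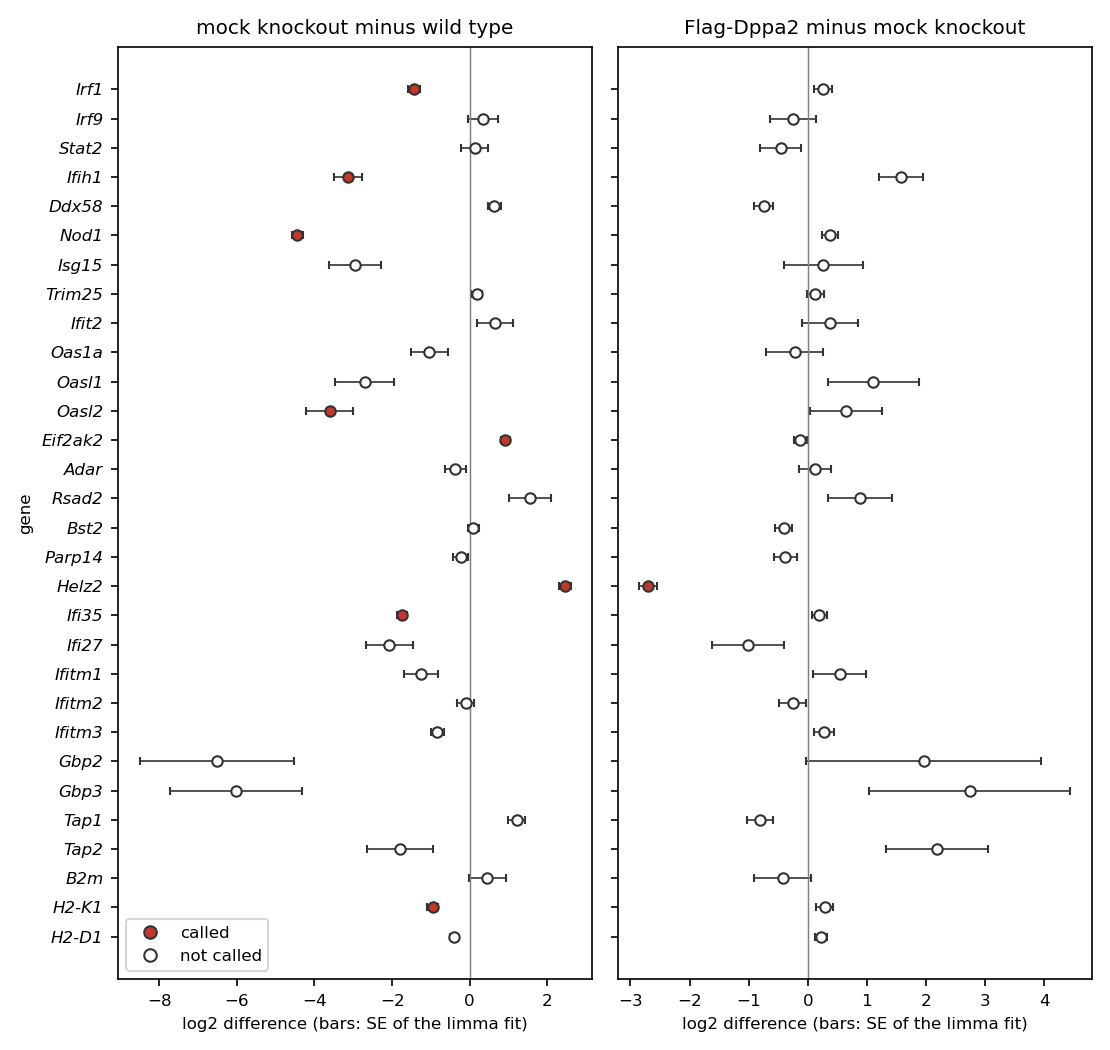
Log2 difference of each of the 30 tested genes (rows) for mock minus WT on the left and Flag-Dppa2 minus mock on the right, with bars of 1 SE and filled points for called genes. The left panel holds 8 filled points, from Nod1 at -4.44 to Helz2 at 2.46, and the right panel holds 1, Helz2 at -2.70. Gbp2 and Gbp3 have the longest bars of the left panel. Points are no measured sizes where a group was detected on neither of its arrays. These are Ifih1 (detected on no knockout array) and Oasl1 in both panels, Ifit2 and Rsad2 on the left and Ifi27 on the right.

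Of the transcription factors, Irf1 changed. IRF1 is induced by interferon gamma and drives class I and guanylate-binding protein genes. Its level was 2.95 and 2.57 with Flag-Dppa2, 2.46 and 2.55 in mock and 3.94 and 3.95 in WT. All 4 knockout arrays lay below both WT arrays. Irf1 was 2.72-fold lower in mock than in WT (-1.44, SE 0.156, limma adjusted p = 0.0233), and its second probe, at -1.42, was called as well (adjusted p = 0.0378). With Flag-Dppa2 against mock the difference was 0.26 (adjusted p = 0.579), and against WT it was -1.18 (adjusted p = 0.0662).

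Irf9 and Stat2 encode transcription factors of the response to interferon. Irf9 ranged over -0.71 to -0.09 with Flag-Dppa2, -0.61 to 0.31 in mock and -0.53 to -0.48 in WT, and Stat2 over -0.82 to 0.00, -0.25 to 0.34 and -0.12 to -0.05 in the same groups. Neither was called, and in all comparisons their groups overlapped. Irf7, which encodes the factor that amplifies the transcription of type I interferon genes, was detected on no array.

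Upstream of these factors, 21 ligands, receptors and signalling genes were listed, of which 12 could be tested and none was called in any comparison. For mock against WT, 4 of the 12 lay higher without overlap and 3 lower, beside 37.2% and 28.6% of all features. The counts were 2 and 2 for Flag-Dppa2 against mock (18.1% and 19% of all features). They were 5 and 4 for Flag-Dppa2 against WT (33.2% and 27.1%). The type I ligand Ifnb1 and the type II ligand Ifng were detected on no array. The receptor subunit genes were detected on all 6 arrays, with mock minus WT at -0.17 for Ifnar1, 0.06 for Ifnar2, 0.12 for Ifngr1 and -0.09 for Ifngr2. Of 6 tested IRF genes outside the set, none was called either. Of 15 genes that restrain the pathway 1 was called, where 3.66% of all features were called lower in mock than in WT. It was Socs1, the inhibitor of JAK kinases, 1.6-fold lower in mock than in WT (-0.68, adjusted p = 0.0385).

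Of the 3 sensors of the set, 2 were called lower in mock, where 3.66% of all features were. They were Nod1 and Ifih1, and Ifih1 passed the filter through WT alone. NOD1 is a cytoplasmic receptor for fragments of bacterial cell wall. Nod1 stood at -1.11 and -1.16 with Flag-Dppa2, -1.68 and -1.35 in mock and 2.88 and 2.97 in WT. It was 21.7-fold lower in mock than in WT (-4.44, SE 0.142, adjusted p = 0.00447) and 16.7-fold lower with Flag-Dppa2 than in WT (-4.06, SE 0.142, adjusted p = 0.0165), and Flag-Dppa2 minus mock was 0.38 (adjusted p = 0.375). With the line as a block the Flag-Dppa2 comparison with WT lost the call (adjusted p = 0.0753) and the mock comparison kept it (adjusted p = 0.0233).

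Ifih1, whose promoter is printed above, was detected on both WT arrays alone. Its levels were -5.47 and -6.37 with Flag-Dppa2 and -7.27 and -7.73 in mock, all not well above background, and -4.20 and -4.53 in WT. It was at least 5.76-fold lower in mock than in WT (adjusted p = 0.0272), where the bound sets the WT mean against the lowest signal that counted as detected or the gene's own signal, whichever was higher. Under normexp its log2 difference was only -0.57. Its other probe was detected nowhere. Ddx58, which encodes RIG-I, the sensor of short RNA with a 5′ triphosphate, stood at -0.27 and -0.63 with Flag-Dppa2, 0.38 and 0.21 in mock and -0.33 and -0.36 in WT, and was not called (mock minus WT 0.64, adjusted p = 0.092).

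A list of 19 other sensors and adaptors, 14 of them tested, gave 1 call in each direction for mock against WT. Over all features 3.66% were called lower and 2.47% higher. Zbp1, which encodes a sensor of left-handed double helices, stood at -4.40 and -5.07 with Flag-Dppa2, -4.82 and -4.67 in mock and -1.95 and -1.86 in WT, detected on all of these but Flag-Dppa2 replicate 2. It was 7.17-fold lower in mock (adjusted p = 0.0159) and 7.1-fold lower with Flag-Dppa2 (adjusted p = 0.0426) than in WT. Myd88, the adaptor of Toll-like receptors, was 1.79-fold higher in mock than in WT (0.84, adjusted p = 0.0249).

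ISG15 is a ubiquitin-like protein that is attached to other proteins, with TRIM25 known to act on RIG-I as a ubiquitin ligase and USP18 known to remove ISG15 again. Isg15 stood at -4.03 and -6.01 with Flag-Dppa2, -5.38 and -5.18 in mock and -2.31 and -2.34 in WT, detected on 1 Flag-Dppa2 array, 1 mock array and both WT arrays. All knockout arrays lay below WT, yet mock minus WT, at -2.96 (SE 0.674), was not called in the 3-group fit (adjusted p = 0.0799) and was called when only the 4 arrays compared were fitted (adjusted p = 0.0167). Trim25 ranged over 3.55 to 4.03 on the 6 arrays and was not called. Usp18 was detected on 1 array alone, Flag-Dppa2 replicate 1, at -2.94.

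The 2′-5′ oligoadenylate synthetase family makes a messenger that activates RNase L in cells that sense double-stranded RNA, and Oasl1 and Oasl2 encode its synthetase-like relatives. Oasl2 stood at -3.15 and -4.88 with Flag-Dppa2, -4.87 and -4.46 in mock and -1.05 and -1.06 in WT, detected on 1 array of each knockout group. It was 12.2-fold lower in mock than in WT (-3.61, SE 0.603, adjusted p = 0.0483), which the line as a block took to an adjusted p of 0.0729. Oasl1 was detected on both WT arrays (-4.34 and -4.41) and on Flag-Dppa2 replicate 2 (-4.88), and not on Flag-Dppa2 replicate 1 (-7.07) or on the mock arrays (-7.34 and -6.83). Its bound for mock against WT was at least 5.47-fold lower without a call (adjusted p = 0.114). Oas1a stood at -1.24 and -0.17 with Flag-Dppa2, -0.95 and -0.02 in mock and 0.56 and 0.54 in WT, lower on all knockout arrays and not called (adjusted p = 0.262).

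Eif2ak2, the gene of PKR shown above, lay above WT on all 4 knockout arrays. Its levels were -0.71 and -0.58 with Flag-Dppa2, -0.42 and -0.61 in mock and -1.44 on both WT arrays. The gene was 1.89-fold higher in mock than in WT (0.92, SE 0.114, adjusted p = 0.0301). Flag-Dppa2 minus WT was 0.80 (adjusted p = 0.0731) and Flag-Dppa2 minus mock -0.12 (adjusted p = 0.737). With the line as a block the adjusted p was 0.0633. Adar, the RNA-editing enzyme that keeps self RNA from the sensors, ranged over -0.17 to 0.64 on the 6 arrays and was not called, and its 2 probes differed in sign.

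Of the IFIT proteins, which bind viral RNA, the 3 genes were dim. Ifit3 was detected on no array and Ifit1 only on Flag-Dppa2 replicate 2, at -2.66. Ifit2 was not called, and its other probe was detected nowhere. The probe used was detected on both Flag-Dppa2 arrays (-4.66 and -3.98), on mock replicate 2 (-4.46) and on no WT array. Rsad2, the gene of viperin, an enzyme that makes a chain-terminating nucleotide, was detected on the same 3 arrays, at -3.76 and -3.14 with Flag-Dppa2 and -3.62 in mock replicate 2. Its levels were -5.06 in mock replicate 1 and -5.91 and -5.89 in WT, at least 5.45-fold higher with Flag-Dppa2 than in WT without a call (adjusted p = 0.113). The other Rsad2 probes were detected on no array.

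Helz2 was the member called between Flag-Dppa2 and mock. HELZ2 is a helicase-like coactivator of nuclear receptors whose gene is induced by interferon. Its level was -4.06 and -3.77 with Flag-Dppa2, -1.17 and -1.25 in mock and -3.57 and -3.77 in WT. The mock arrays stood apart from the other 4, and the Flag-Dppa2 and WT arrays overlapped. Helz2 was 5.5-fold higher in mock than in WT (2.46, SE 0.149, adjusted p = 0.00901) and 6.51-fold lower with Flag-Dppa2 than in mock (-2.70, SE 0.149, adjusted p = 0.0174), with differences of -2.89 in the first line and -2.52 in the second. A second probe, detected on the mock arrays alone and so with no measured fold, was called in the same directions (adjusted p = 0.00921 for mock against WT and 0.0236 for Flag-Dppa2 against mock). With the line as a block the Flag-Dppa2 difference had an adjusted p of 0.0606.

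Of the other 7 genes called between mock and WT, none was called between Flag-Dppa2 and mock. Their Flag-Dppa2 minus mock differences were -0.12 for Eif2ak2, 0.20 for Ifi35, 0.26 for Irf1, 0.29 for H2-K1, 0.38 for Nod1 and 0.65 for Oasl2, and Ifih1 was detected in neither group. Only Helz2 of the 36 had both a called difference in mock against WT and a called difference of the opposite sign with Flag-Dppa2.

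Ifi35 encodes a leucine-zipper protein that joins with NMI and is induced by interferon. It stood at -1.39 and -1.38 with Flag-Dppa2, -1.73 and -1.44 in mock and 0.14 and 0.19 in WT. Every knockout array lay more than 1 log2 unit below WT. It was 3.35-fold lower in mock (-1.75, SE 0.131, adjusted p = 0.0118) and 2.93-fold lower with Flag-Dppa2 (-1.55, SE 0.131, adjusted p = 0.041) than in WT; the Flag-Dppa2 comparison had an adjusted p of 0.0925 with the line as a block.

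**Figure D3:**
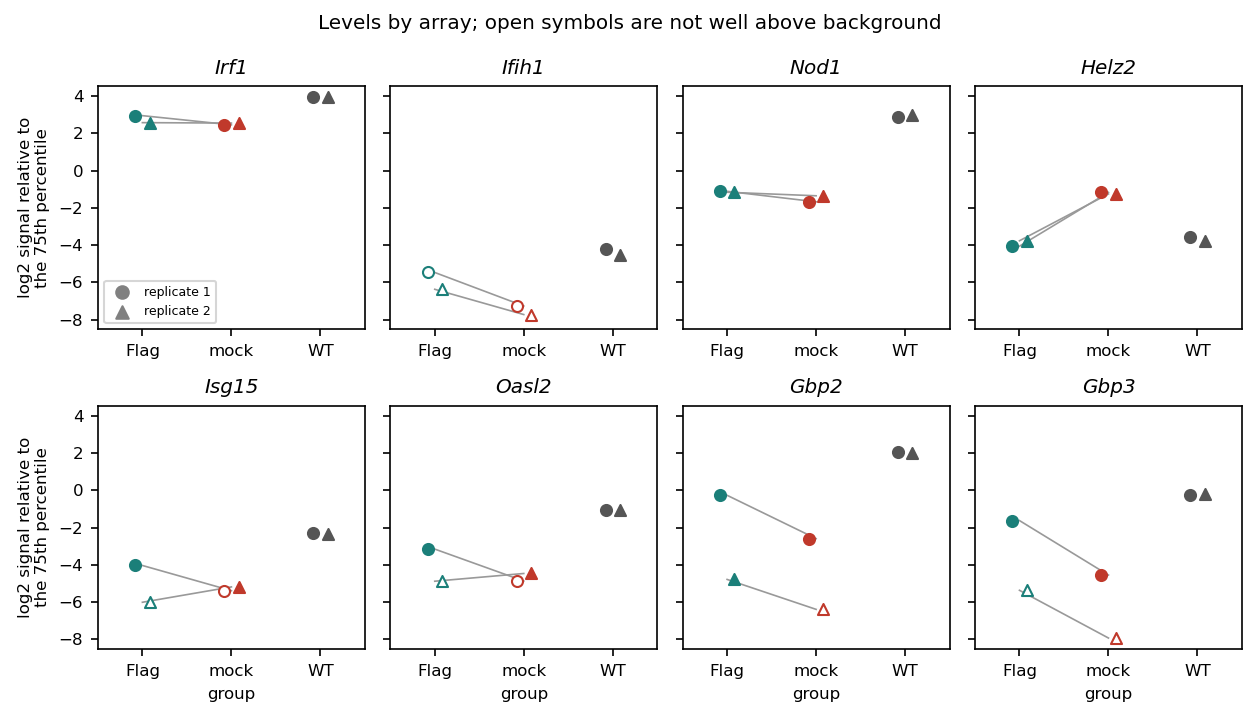
Levels of 8 members by group (Flag, mock, WT), as log2 signal relative to the 75th percentile of the array, with circles for replicate 1, triangles for replicate 2, open symbols for probes not well above background and a line joining the arrays of the same knockout line. Helz2 is high in mock alone, Nod1 and Irf1 are low in both knockout groups, and in Gbp2 and Gbp3 the second line lies below the first in both knockout groups.

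Ifi27, whose product lies in mitochondrial and nuclear membranes, was detected on both mock arrays (-4.61 and -4.31) and both WT arrays (-1.77 and -2.99) and on neither Flag-Dppa2 array (-6.10 and -4.83). The bounds were at least 2.01-fold lower with Flag-Dppa2 than in mock (adjusted p = 0.578) and at least 8.49-fold lower than in WT (adjusted p = 0.101), neither called. Ifi44 was detected on no array. Bst2, the gene of tetherin, which holds budding virus at the cell surface, and Parp14, an ADP-ribosyltransferase, were detected on all arrays and not called. Bst2 stood between 3.85 and 4.48, and its mock minus WT difference of 0.10 became -0.01 under quantile normalization and in the series matrix. Parp14 lay between -0.36 and 0.54.

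IFITM proteins sit in membranes and block the fusion of enveloped viruses with the cell, and their genes neighbour each other on chromosome 7. Ifitm1 stood at 2.85 and 4.00 with Flag-Dppa2, 2.58 and 3.19 in mock and 4.21 and 4.08 in WT. Ifitm2 had 3.1 and 3.59 with Flag-Dppa2, 3.40 and 3.80 in mock and 3.75 and 3.66 in WT. Ifitm3 had 4.23 and 4.24 with Flag-Dppa2, 4.19 and 3.75 in mock and 4.83 and 4.77 in WT. None was called: mock minus WT was -1.26 for Ifitm1 (adjusted p = 0.169), -0.11 for Ifitm2 (adjusted p = 0.8) and -0.83 for Ifitm3 (adjusted p = 0.0673). For Ifitm1 and Ifitm3 all knockout arrays lay below both WT arrays, while for Ifitm2 the mock and WT arrays overlapped. The 3 genes are alike in sequence, so a probe of one may also bind RNA of another.

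The guanylate-binding proteins, GTPases that attack the vacuoles of intracellular pathogens, lay far below WT in mock, with a wide spread between the lines. Gbp2 stood at -0.26 and -4.78 with Flag-Dppa2, -2.59 and -6.39 in mock and 2.06 and 2.01 in WT, detected on all arrays but mock replicate 2. Gbp3 had -1.62 and -5.36 with Flag-Dppa2, -4.55 and -7.93 in mock and -0.27 and -0.18 in WT, detected on replicate 1 of each knockout group and in WT. In both genes all 4 knockout arrays lay below WT and replicate 2 lay below replicate 1. Mock minus WT was -6.52 for Gbp2 (SE 1.99, adjusted p = 0.13) and -6.01 for Gbp3 (SE 1.7, adjusted p = 0.114), neither called, and both values rest in part on mock replicate 2, which did not detect them. With the mock array of the first line set against the mean of the WT arrays, the differences were -4.62 for Gbp2 and -4.32 for Gbp3. Under normexp Gbp3 differed by -3.15 and was called (adjusted p = 0.0436).

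In the first line, where both arrays detected the genes, the Flag-Dppa2 array lay above its mock array by 2.33 for Gbp2 and 2.93 for Gbp3. In the second line mock was not detected for either gene, nor Flag-Dppa2 for Gbp3, so no size is given, and the Flag-Dppa2 minus mock differences over both lines were not called (adjusted p = 0.77 and 0.591). The fibroblast marker Col1a1 showed a gap between the lines too, at -1.56 and -3.87 with Flag-Dppa2, -1.69 and -3.54 in mock and 0.78 and 0.76 in WT. Over the 15 tested fibroblast and feeder markers, the mock array minus the mean of the WT arrays had a median of -0.93 in the first line and -2.62 in the second. Their part in the Gbp2 and Gbp3 values was not tested.

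Outside the set, 31 other interferon-stimulated effector genes of 46 listed were tested. For mock against WT 6 were called lower and none higher, beside 3.66% and 2.47% of all features, with a median of -0.61 beside 0.05. Of the 6, Igtp, a GTPase of the immunity-related family, stood at -0.94 and -0.94 with Flag-Dppa2, -2.34 and -1.63 in mock and 0.94 and 0.79 in WT, and was 7.19-fold lower in mock (adjusted p = 0.017). Parp12 was 5.24-fold lower in mock, with 1 mock array detected (adjusted p = 0.0448). Gbp7, Herc6 and Sp110 were detected on neither mock array and were at least 6.12-fold (adjusted p = 0.0289), 9.79-fold (adjusted p = 0.0108) and 13.2-fold lower (adjusted p = 0.0417). Gbp7 and Herc6 were detected on the WT arrays alone and so passed the filter through WT alone. A gene that passed in this way could hardly be called higher in mock, so their direction adds little to the count. Herc6, whose product attaches ISG15 in the mouse, was also at least 8.71-fold lower with Flag-Dppa2 than in WT (adjusted p = 0.0362).

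Cmpk2, the sixth, encodes a mitochondrial nucleotide kinase, and its gene is the direct neighbour of Rsad2 on chromosome 12. It stood at -3.24 and -3.77 with Flag-Dppa2, -7.05 and -6.86 in mock, not detected, and -3.73 and -3.94 in WT. The Flag-Dppa2 arrays overlapped the WT arrays and both stood above mock. Cmpk2 was at least 8.09-fold lower in mock than in WT (adjusted p = 0.0108) and at least 10.1-fold higher with Flag-Dppa2 than in mock (adjusted p = 0.022). Its neighbour Rsad2, given above, was detected in mock replicate 2 and not in WT.

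Class I presentation was described gene by gene along the pathway. TAP1 and TAP2 form the transporter that carries peptides into the endoplasmic reticulum. Tap1 stood at -3.39 and -3.71 with Flag-Dppa2, -2.51 and -3.0 in mock and -4.03 and -3.91 in WT, so that mock was above WT in both lines without a call (1.21, SE 0.218, adjusted p = 0.054). Quantile normalization and the series matrix called it higher (adjusted p = 0.0279 and 0.0276). Tap2 stood at -1.62 and -3.85 with Flag-Dppa2, -4.30 and -5.54 in mock and -3.15 and -3.10 in WT. Both mock arrays lay below WT and each Flag-Dppa2 array above the mock array of its line, by 2.68 and 1.69, and no comparison was called (mock minus WT -1.79, SE 0.861, adjusted p = 0.269; Flag-Dppa2 minus mock 2.18, SE 0.861, adjusted p = 0.395).

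Psmb8 and Psmb9, 2 of the subunits of the immunoproteasome, which cuts proteins into peptides fit for class I, alternate with Tap1 and Tap2 on chromosome 17 in the order Psmb9, Tap1, Psmb8, Tap2 with no gene between. Psmb8 stood at -1.45 and -3.96 with Flag-Dppa2, -5.36 and -6.82 in mock, not detected, and 0.81 and 0.63 in WT. It was at least 112-fold lower in mock than in WT (adjusted p = 0.0387), a working bound that takes the undetected mock signals as they stood. Psmb9 stood at -0.41 and -1.02 with Flag-Dppa2, -0.05 and -1.06 in mock and -0.13 and -0.10 in WT and was not called (adjusted p = 0.538). Erap1, the peptidase that trims peptides to length, stood at -1.87 and -3.69 with Flag-Dppa2, -3.51 and -5.58 in mock and -0.52 and -0.55 in WT, below WT on all knockout arrays and not called (adjusted p = 0.083). Tapbp, the gene of tapasin, which holds class I molecules at the transporter, was not called either (mock minus WT -0.58, adjusted p = 0.177). For mock minus WT the neighbours thus stood at -0.44 for Psmb9, 1.21 for Tap1 and -1.79 for Tap2, beside the bound for Psmb8.

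**Figure D4:**
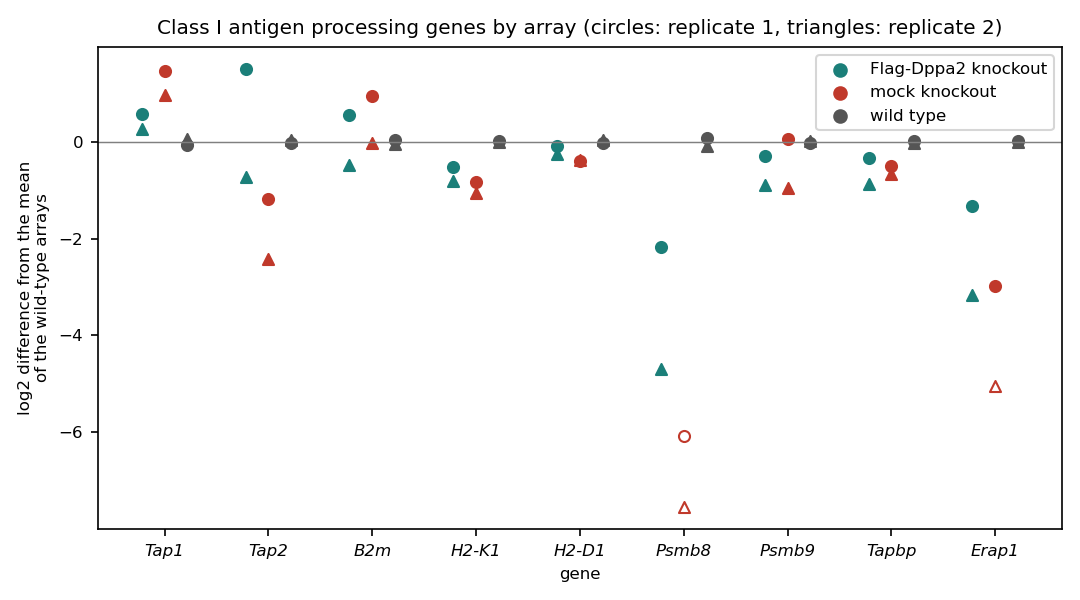
Class I antigen processing genes (columns) on each array as the log2 difference from the mean of the WT arrays, with Flag-Dppa2, mock and WT from left to right within a gene and open symbols for probes not well above background. Mock Tap1 lies above 0 and mock Tap2, Psmb8 and Erap1 below it, with both mock points of Psmb8 open, while H2-K1 and H2-D1 lie within 1.1 units of WT on all arrays.

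H2-K1 and H2-D1 encode class I heavy chains and B2m their shared light chain, beta-2 microglobulin. H2-K1 stood at 2.72 and 2.43 with Flag-Dppa2, 2.40 and 2.17 in mock and 3.25 and 3.23 in WT. It was 1.94-fold lower in mock than in WT (-0.95, SE 0.148, adjusted p = 0.0434), a call lost with the line as a block (adjusted p = 0.0575) and in the fit of mock and WT alone (adjusted p = 0.0529). Its 2 other probes gave -0.71 (adjusted p = 0.12) and -1.02 (adjusted p = 0.0537). H2-D1 stood at 1.69 and 1.52 with Flag-Dppa2, 1.37 and 1.39 in mock and 1.74 and 1.81 in WT, a difference of -0.39 for mock minus WT that was not called (adjusted p = 0.104). The other H2-D1 probe, detected on all 6 arrays, gave -0.73 and was not called either (adjusted p = 0.053).

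B2m had 1.16 and 0.14 with Flag-Dppa2, 1.55 and 0.58 in mock and 0.65 and 0.57 in WT. Its groups overlapped in every comparison, and replicate 1 lay above replicate 2 in both knockout groups. Of 18 other class I genes tested, 4 were called lower in mock than in WT and none higher, beside 3.66% and 2.47% of all features: Psmb8, given above, and the class I genes H2-Q2, H2-Q4 and H2-Q10, lower by 1.52-fold, 1.93-fold and 1.77-fold (adjusted p = 0.0421, 0.0413 and 0.0292). Class I heavy chain genes are close copies of one another, so these probes and those of H2-K1 and H2-D1 may share targets. None of 8 tested class II genes was called in any comparison. With the line as a block, the calls for mock against WT in the pathway lists outside the set came to 2 lower sensors, 3 lower effectors and 1 lower class I gene, and those of Cmpk2, Zbp1 and Herc6 in the comparisons with Flag-Dppa2 were lost.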

How the data were processed

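The intensity values are the processed signals of Agilent Feature Extraction 10.7.3.1, per the file headers, corrected for background within each array, on a linear scale and not scaled between arrays. The authors deposited quantile-normalized log2 values too, which served as 1 alternative. Of 41174 probes 41059 were used, after leaving out 1639 control spots and flagged spots, and 27143 were named through RefSeq accessions (GRCm38.p6 table, names, neighbours and promoters only). Per array, 55.9% to 60.4% of probes were well above background, with a 75th percentile of 719.2 to 856.4 in intensity, and saturation was absent (0 spots); the number of arrays limits the precision.

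The 75th percentile was subtracted in log2, the brightest probe per gene was kept if 2 or more arrays had it well above background, and all 6 arrays entered a limma 3.58.1 fit (R 4.3.3; prior degrees of freedom 1.41, residual 3) whose test was first tested on simulated data. The simulated arrays were independent of each other, with the same spread in all groups, so the simulation did not cover shared lines or unequal spreads. Figures used Python 3.11.15 and matplotlib 3.10.9. The mock and Flag-Dppa2 arrays of 1 number share a knockout line, per the labels, and their deviations from the group means correlated at 0.59 over 18774 features, against 0.01 for Flag-Dppa2 and WT and -0.04 for mock and WT. Median SDs between arrays of a group were 0.171 for Flag-Dppa2, 0.151 for mock and 0.038 for WT (log2), and nothing beyond the line names says how far replicates are separate cultures.

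The members and gene lists were chosen with earlier results of these data known. Every member is named; genes of the other lists are named where called, at most 6 a list, or to place a member beside its receptor, neighbour or marker. The scanner files used have no mean-signal column, so normexp used the median signal and the local background (offset 50).

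Alternatives were quantile normalization, normexp, the series matrix, other filters, an intensity trend, the replicate number as a block, only the 4 arrays compared, averaged WT arrays, 1 array left out and the second-brightest probe. That block, called the line above, also groups each WT array with the knockout arrays of its number, which share a mother but not a line. WT deviations correlated with theirs at only 0.01 and -0.04, so a call against WT lost with the block is no measure of the line alone.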

Additional observations from a re-analysis of the deposited data

Results flagged for a closer look

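Isg15 was flagged because the lines moved in opposite ways: Flag-Dppa2 minus mock was 1.35 in the first line and -0.82 in the second, a gap of 2.18 on the log2 scale. With 1 array per line and group the difference between the lines was not tested, and the level was not well above background on Flag-Dppa2 replicate 2 and mock replicate 1. Ifit1 and Usp18 lay outside the fit and were flagged because each was detected on 1 array of the Flag-Dppa2 group and on no WT array, Ifit1 at -2.66 on replicate 2 and Usp18 at -2.94 on replicate 1. The WT arrays stood at -7.27 and -7.04 for Ifit1 and at -5.53 and -5.54 for Usp18.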

How the results depend on the processing

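No called difference of a member changed sign under any alternative run. Over all features the main fit called 141 for Flag-Dppa2 against mock, 100 for Flag-Dppa2 against WT and 1152 for mock against WT, and 1, 2 and 8 members, in that order of comparisons here and below. Averaging the WT arrays, or fitting only the 4 arrays compared with the replicate block, gave 0 features and 0 members in each. The replicate block on 6 arrays gave 4, 0 and 492 features and 0, 0 and 4 members (Nod1, Ifih1, Helz2 and Ifi35 for mock against WT). Without the filter on dim probes 48, 6 and 384 features and 1, 1 and 3 members were called. With detection on all 6 arrays 28, 23 and 1092 features and 1, 1 and 7 members were called, and with normexp 53, 390 and 1671 features and 1, 5 and 10 members. For Flag-Dppa2 against WT, quantile normalization called 222 features, the series matrix 223 and an intensity trend 268. That trend called 1757 features for mock against WT. Only the 4 arrays compared, without the block, gave 0, 5 and 890 features and 0, 1 and 9 members.

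With 1 array left out in turn, 0 to 110, 0 to 5 and 0 to 890 features and 0 to 0, 0 to 1 and 0 to 9 members were called, the lone array being assumed to vary like the other groups. Leaving out either WT array ended all calls, leaving out either mock array left 3 members (Nod1, Helz2 and Ifi35) for mock against WT, and leaving out any single array ended the call of Helz2 for Flag-Dppa2 against mock, with adjusted p of 0.0584 to 0.147. Beside the fewer samples, the cause was not tested. The difference of Ifih1 for mock against WT lay between -3.36 and -0.57, the smaller size under normexp, and that of Oasl2 between -3.81 and -2.03. Signal near background limits Ifih1, Oasl2, Isg15, Gbp3 and Rsad2.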
